A study of Mus musculus with 6 samples.

Results

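This account covers 10 genes of the blood vessel endothelium in mouse testis: Pecam1, Cdh5, Kdr, Flt1, Tek, Tie1, Eng, Vwf, Emcn and Ly6c1. They were taken from a list of named endothelial genes, and every array probe whose accession maps to one of them was read. They are 10 of the 19751 genes named on the array. The rule gave 12 probes of 39429, with a pair of probes each for Kdr and Ly6c1 and a single probe for every other gene. Whole testis was measured in 3 TAp73 KO mice and 3 WT mice, all male, of strain C57BL/6J and 10 weeks old, with 1 Agilent single-colour array per mouse. TAp73 denotes the forms of p73, a protein of the p53 family, that carry the transactivation domain. The labels and files do not say how the knockout allele was built or whether WT animals were littermates.

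Endothelial cells line the blood vessels. In the testis the vessels run through the interstitium between the seminiferous tubules, beside Leydig cells and macrophages, and do not enter the tubules. Vessel growth and stability depend on VEGF, which acts through the receptors Kdr and Flt1, and on angiopoietins, which act through the receptor Tek with its partner Tie1. Endothelial cells hold to each other through Cdh5 and Pecam1. Transcription factors of the ETS family bind a core GGAA and are well known regulators of endothelial genes.

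The start regions of 4 of the genes are shown: Ly6c1, the only one of the 10 whose difference passed the test, and Flt1, Tie1 and Eng, a receptor each of the VEGF, angiopoietin and TGF-beta families, for comparison. All 4 windows shown hold the motif marked below, and those of Kdr and Tek, which lack it, are not shown. Each runs 5′ to 3′ on the gene's own strand from 250 bases before the RefSeq start to 50 after it, in build GRCm38.p6. Capitals mark an ETS-type motif, AGGAAG or its reverse complement CTTCCT.
Ly6c1, chr15:75048614-75048913, minus strand: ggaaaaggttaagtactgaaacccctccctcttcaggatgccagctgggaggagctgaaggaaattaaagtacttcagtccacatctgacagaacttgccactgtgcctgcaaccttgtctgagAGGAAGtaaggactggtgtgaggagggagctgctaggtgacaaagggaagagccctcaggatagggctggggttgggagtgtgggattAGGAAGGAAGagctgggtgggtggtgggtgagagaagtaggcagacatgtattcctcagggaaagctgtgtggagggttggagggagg
Flt1, chr5:147725962-147726261, minus strand: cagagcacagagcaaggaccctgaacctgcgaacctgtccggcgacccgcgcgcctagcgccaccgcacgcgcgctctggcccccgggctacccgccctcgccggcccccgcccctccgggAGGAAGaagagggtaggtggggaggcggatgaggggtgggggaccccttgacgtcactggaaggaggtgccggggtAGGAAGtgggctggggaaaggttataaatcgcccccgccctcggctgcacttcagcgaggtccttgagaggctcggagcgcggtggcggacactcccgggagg
Tie1, chr4:118489800-118490099, minus strand: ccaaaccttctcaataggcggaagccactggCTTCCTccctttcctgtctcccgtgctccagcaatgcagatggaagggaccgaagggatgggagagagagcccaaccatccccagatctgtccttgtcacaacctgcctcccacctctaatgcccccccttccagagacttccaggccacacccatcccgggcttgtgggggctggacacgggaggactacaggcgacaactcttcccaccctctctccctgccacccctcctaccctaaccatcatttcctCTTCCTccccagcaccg
Eng, chr2:32646345-32646644, plus strand: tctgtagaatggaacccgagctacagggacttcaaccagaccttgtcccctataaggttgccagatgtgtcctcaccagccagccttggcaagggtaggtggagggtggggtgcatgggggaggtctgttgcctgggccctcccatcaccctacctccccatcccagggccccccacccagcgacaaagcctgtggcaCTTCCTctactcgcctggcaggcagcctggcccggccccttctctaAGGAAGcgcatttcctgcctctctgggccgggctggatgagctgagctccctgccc

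In the Ly6c1 region the motif begins 126, 38 and 34 bases before the start, the last 2 overlapping each other. RefSeq lists a second Ly6c1 start upstream, and the window around it holds no AGGAAG on either strand. Of the 7 genes with a start region in the table, 5 held the motif in at least 1 window, namely Ly6c1, Flt1, Tie1, Eng and Emcn, and 2 did not, Kdr and Tek. Among all 32851 windows of this length, 35.4% held it, which is a share of single windows and not of genes. These matches describe the letters only.

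Signals are given as scaled signal. This is the background-subtracted spot intensity of the scanner software after the arrays were brought to a common 75th percentile of 4961 units. Differences are on the log2 scale, TAp73 KO minus WT, from limma, and a probe was called where its p-value, adjusted by Benjamini and Hochberg over all 31801 tested probes, was under 0.05. All 12 endothelial probes were well above background on all 6 arrays, none was saturated, and all were tested. The gene list and its companion lists were drawn up with earlier results of these arrays known.

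The label check came from the targeted gene. Trp73 probe A_52_P193555 read 16.5, 5.77 and 5.86 in TAp73 KO replicates 1 to 3 and 528, 524 and 537 in WT replicates 1 to 3. Probe A_55_P1988133 stood at 10.8% of the WT level. The brightest Trp73 probe, A_52_P410636, read 544, 445 and 447 in TAp73 KO testes and 940, 933 and 972 in WT testes. It stood at 50.2% of the WT level. Each of these probes was called lower. The authors' value table pairs the same arrays with the opposite labels, so that under its column labels every sign below is turned. Directions here follow the scanner files. The first principal component was taken over the tested probes with a value on all 6 arrays. TAp73 KO replicates 1 to 3 lay at -66.2, -3.92 and -4.91, and WT replicates 1 to 3 at 30.8, 22.5 and 21.7. The groups thus lay on opposite sides of 0, and TAp73 KO replicate 1 stood apart from the other TAp73 KO arrays. Germ, Sertoli, Leydig and smooth muscle cell markers of testis, 16 of 17 measured, were all well above background on every array. Of these 16, the Sertoli factor Sox9 (-0.64, limma adjusted p = 0.0186) and the Leydig enzyme Hsd3b1 (-0.76, adjusted p = 0.0369) were lower in TAp73 KO, 0 were higher and 14 were not called (median 0.11, or -0.02 to 0.24 with 1 array left out). The call of Hsd3b1 was lost with slide as a block (adjusted p = 0.0791).

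Of the 10 endothelial genes, Ly6c1 was lower in TAp73 KO testes, to 62.7% of the WT level, and the other 9 were not called. The probe count was 1 lower, 0 higher and 11 not called of 12, and over all tested probes 2.64% were called lower and 0.248% higher, or 2.88% in all. By limma's raw p below 0.05, 3 endothelial probes were lower and 0 higher, where 10.9% of all tested probes were lower and 12.3% higher. Groups did not overlap for 3 of the 12 probes, the pair for Ly6c1 and the probe for Cdh5, all lower in TAp73 KO; over all tested probes the groups were apart for 31.7%, with 13.1% lower and 18.6% higher in TAp73 KO. Taking the brightest probe of each gene, 7 genes had a negative and 3 a positive difference, with a median of -0.15 against 0.06 over all tested probes. Kdr counts as positive here by its brightest probe (0.08), while its other probe gave -0.35. With normexp background correction Pecam1, Cdh5, Flt1, Tek, Tie1, Eng and Emcn were all positive, between 0.03 for Cdh5 and 0.55 for Emcn, where the median of all probes was 0.22. Vwf was also positive there (0.11). The Kdr probes were both negative there (-0.07 for the brightest and -0.08), and so were the Ly6c1 probes (-0.66 and -0.25). In whole tissue, fewer endothelial cells and less RNA per cell cannot be told apart.

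**Figure D1:**
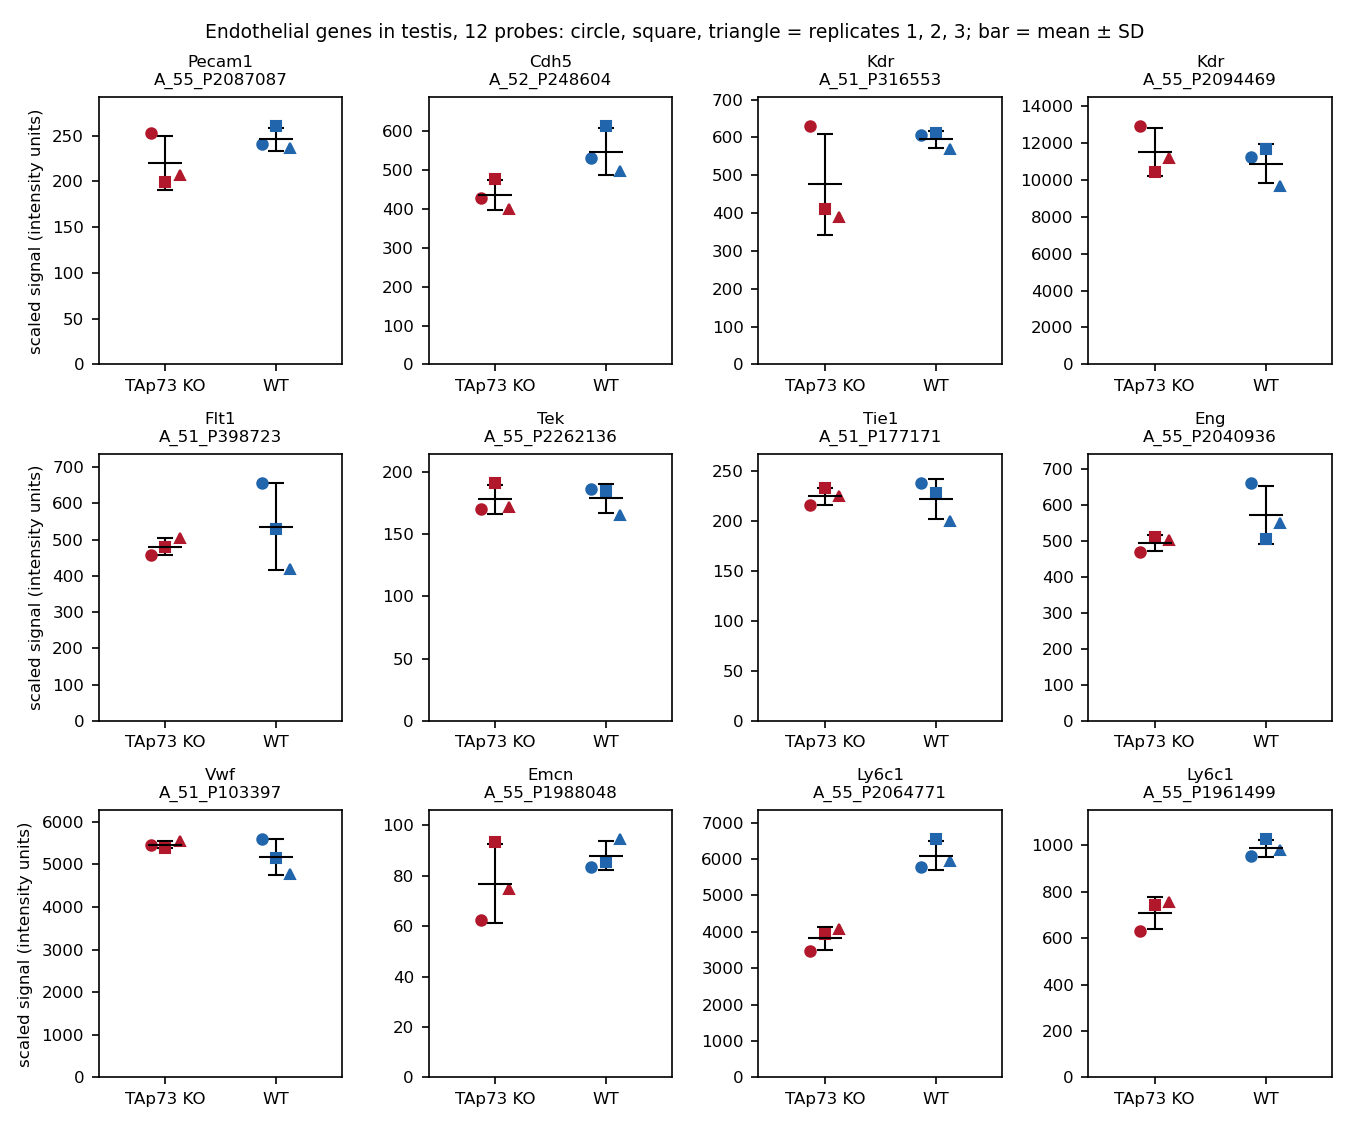
Scaled signal (intensity units, axes from 0) of the 12 endothelial probes in each testis, TAp73 KO on the left and WT on the right, with circle, square and triangle for replicates 1, 2 and 3 and the mean ± SD (n = 3 per group). The pair of Ly6c1 probes and Cdh5 have no overlap between groups, and for Kdr probe A_51_P316553 TAp73 KO replicate 1 lies at 630 while the other TAp73 KO arrays lie at 410 and 389.

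Ly6c1 encodes a small protein anchored to the cell surface by a lipid, found on capillary endothelium and also on monocytes and some T cells. Probe A_55_P2064771 read 3462, 3941 and 4069 in TAp73 KO testes and 5791, 6547 and 5943 in WT testes. Every TAp73 KO array lay below every WT array, and the gap between the groups was wider than the range within either group. The means were 3824 ± 320 and 6093 ± 400 (SD, n = 3 each), a log2 difference of -0.67 (SE 0.095, 95% interval -0.90 to -0.44, limma adjusted p = 0.0248). In TAp73 KO it was thus 1.59-fold lower. The probe ranked 411 by p-value among all tested probes.

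The companion probe A_55_P1961499 has the same accession. It read 629, 742 and 755 in TAp73 KO testes and 956, 1028 and 981 in WT testes. Here too the groups were apart, in the same direction, with a log2 difference of -0.48 (SE 0.095, 95% interval -0.71 to -0.25). This probe missed the threshold (limma adjusted p = 0.0577). Ly6c1 has a close paralog, Ly6c2, a gene of monocytes for which no probe was named here, and signals of the 2 genes may not be separated by these probes.

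The direction of Ly6c1 held within each slide, and the call did not hold in every setting. The arrays lay on 2 slides, each with both groups. With slide as a block, probe A_55_P2064771 kept its difference of -0.67 (limma adjusted p = 0.047), the slide 1 arrays alone gave -0.67 (adjusted p = 0.322) and the slide 2 pair, 1 array each, gave -0.69. Leaving out any 1 of the 6 arrays ended the call, with differences of -0.72 to -0.60 and adjusted p-values of 0.0519 to 0.113. Without TAp73 KO replicate 1 the difference was -0.60.

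Within each array, Ly6c1 was also set against the mean log2 level of the other 9 genes, a contrast that no scaling between arrays can change. It stood at 2.69, 2.82 and 2.92 log2 units in TAp73 KO testes and 3.23, 3.46 and 3.46 in WT testes. The groups did not overlap. This contrast was chosen after the values were seen and carries no test, and levels of different probes are not comparable, so that only the change between arrays has meaning.

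**Figure D2:**
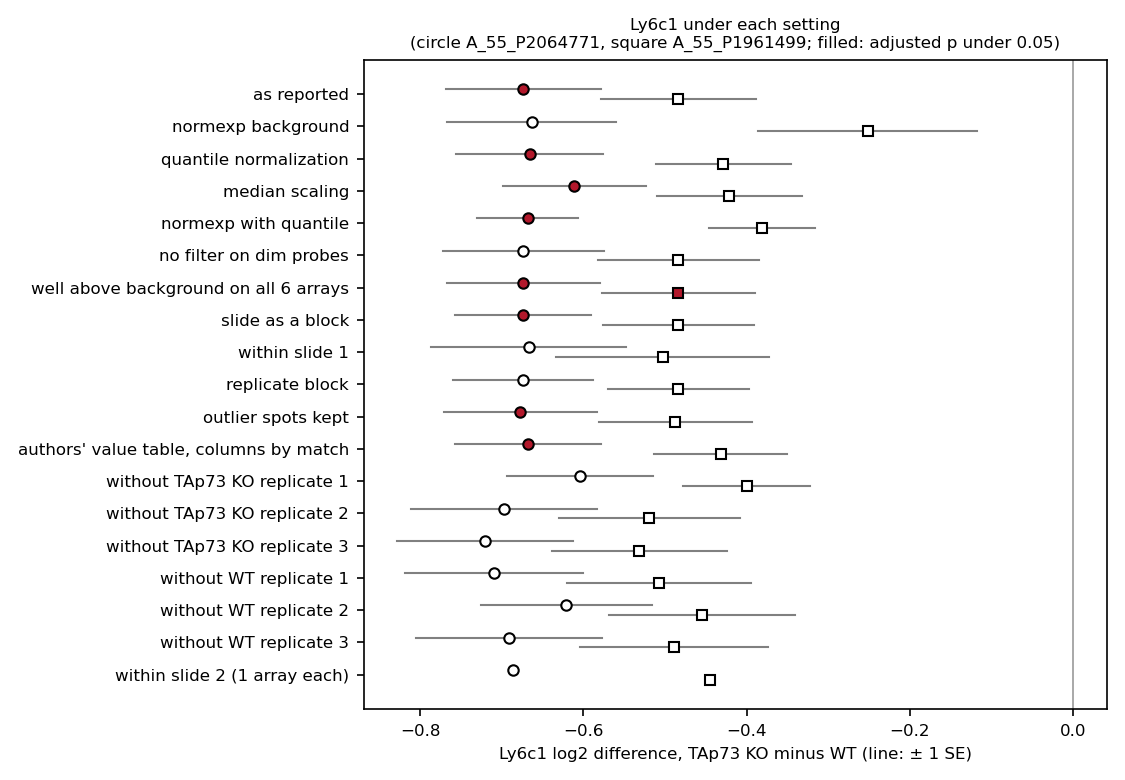
Log2 difference of Ly6c1, TAp73 KO minus WT, for probes A_55_P2064771 (circle) and A_55_P1961499 (square) as reported and under each other processing setting, with lines of ± 1 SE and filled symbols for an adjusted p under 0.05. All values lie below 0, between -0.72 and -0.60 for the circles and between -0.53 and -0.25 for the squares.

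Among the junction and surface proteins Pecam1, Cdh5 and Emcn, Cdh5 had the largest difference and none was called. Cdh5, the endothelial cadherin that joins neighbouring cells, read 428, 476 and 400 in TAp73 KO testes and 531, 613 and 497 in WT testes. The groups did not overlap, although the highest TAp73 KO array lay close to the lowest WT array. The log2 difference was -0.33 (SE 0.11, 95% interval -0.60 to -0.06, limma adjusted p = 0.163). It was -0.19 within slide 1 and -0.61 in the slide 2 pair.

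Pecam1, an adhesion molecule of endothelial junctions that platelets and leukocytes also carry, read 253, 199 and 207 in TAp73 KO testes and 241, 261 and 236 in WT testes. TAp73 KO replicate 1 lay among the WT arrays and the other 2 lay below them, for a difference of -0.17 (SE 0.11, 95% interval -0.44 to 0.10, adjusted p = 0.377). Without TAp73 KO replicate 1 the difference was -0.28 (adjusted p = 0.119). Emcn, a sialomucin of venous and capillary endothelium, was the dimmest of these probes at 62.3, 93.3 and 74.8 in TAp73 KO testes and 83.6, 85.5 and 94.5 in WT testes. Its groups overlapped (-0.21, SE 0.15, 95% interval -0.59 to 0.16, adjusted p = 0.421). The value for Emcn rested on single arrays, at -0.07 without TAp73 KO replicate 1 and -0.36 without TAp73 KO replicate 2.

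The VEGF receptors were not called. Flt1, which binds VEGF tightly and in a soluble form withholds it from Kdr, read 458, 479 and 504 in TAp73 KO testes and 657, 529 and 418 in WT testes. The WT arrays spread on both sides of all TAp73 KO arrays (-0.13, SE 0.17, 95% interval -0.54 to 0.27, adjusted p = 0.639), and Flt1 differed by 0.03 without WT replicate 1 and by -0.30 without WT replicate 3. Kdr, the main signalling receptor for VEGF in endothelium, was read by probes with different patterns. Probe A_55_P2094469 read 12908, 10407 and 11187 in TAp73 KO testes and 11243, 11680 and 9667 in WT testes, with overlapping groups and a difference of 0.08 (SE 0.12, 95% interval -0.20 to 0.36, adjusted p = 0.685).

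Probe A_51_P316553 of Kdr read 630, 410 and 389 in TAp73 KO testes and 605, 610 and 569 in WT testes. TAp73 KO replicate 1 was the highest of the 6 arrays and the other TAp73 KO arrays were the lowest. The difference was -0.35 over all arrays (SE 0.19, 95% interval -0.81 to 0.10, adjusted p = 0.292). Without TAp73 KO replicate 1 it was -0.57 and passed the threshold (limma adjusted p = 0.0473). For probe A_55_P2094469 the same array was again the highest of the 6, and without it the difference was -0.005 (adjusted p = 0.983). The disagreement between the Kdr probes leaves no single value for the gene.

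The angiopoietin receptors gave the smallest differences of the 10 genes. Tek, the receptor of the angiopoietins, read 171, 191 and 172 in TAp73 KO testes and 186, 185 and 165 in WT testes, a difference of -0.01 (SE 0.09, 95% interval -0.22 to 0.21, adjusted p = 0.973). Tie1, its partner with no widely accepted ligand of its own, read 216, 233 and 224 in TAp73 KO testes and 238, 228 and 200 in WT testes, a difference of 0.02 (SE 0.09, 95% interval -0.20 to 0.24, adjusted p = 0.907). For both genes the groups overlapped throughout, and the 95% fold intervals in this processing were 0.86 to 1.15 for Tek and 0.871 to 1.18 for Tie1. With normexp background correction the log2 differences were 0.45 (SE 0.38) for Tek and 0.40 (SE 0.34) for Tie1. These values lay above the 95% log2 intervals given here, in a setting where the median of all probes was raised as well. Both genes lie on chromosome 4 with Trp73. The number of tested genes between them and Trp73 is 647 for Tek and 467 for Tie1, of 1074 on that chromosome.

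Eng, a coreceptor of the TGF-beta family on endothelium, read 471, 513 and 502 in TAp73 KO testes and 663, 507 and 551 in WT testes. A single WT array, replicate 1, lay well above the rest, and the groups overlapped (-0.20, SE 0.11, 95% interval -0.48 to 0.07, adjusted p = 0.312). Without that array the difference of Eng was -0.10. Vwf, the clotting glycoprotein that endothelial cells store and that captures platelets, read 5455, 5387 and 5539 in TAp73 KO testes and 5593, 5157 and 4762 in WT testes. The TAp73 KO arrays lay within the WT range (0.08, SE 0.08, 95% interval -0.12 to 0.28, adjusted p = 0.56).

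**Figure D3:**
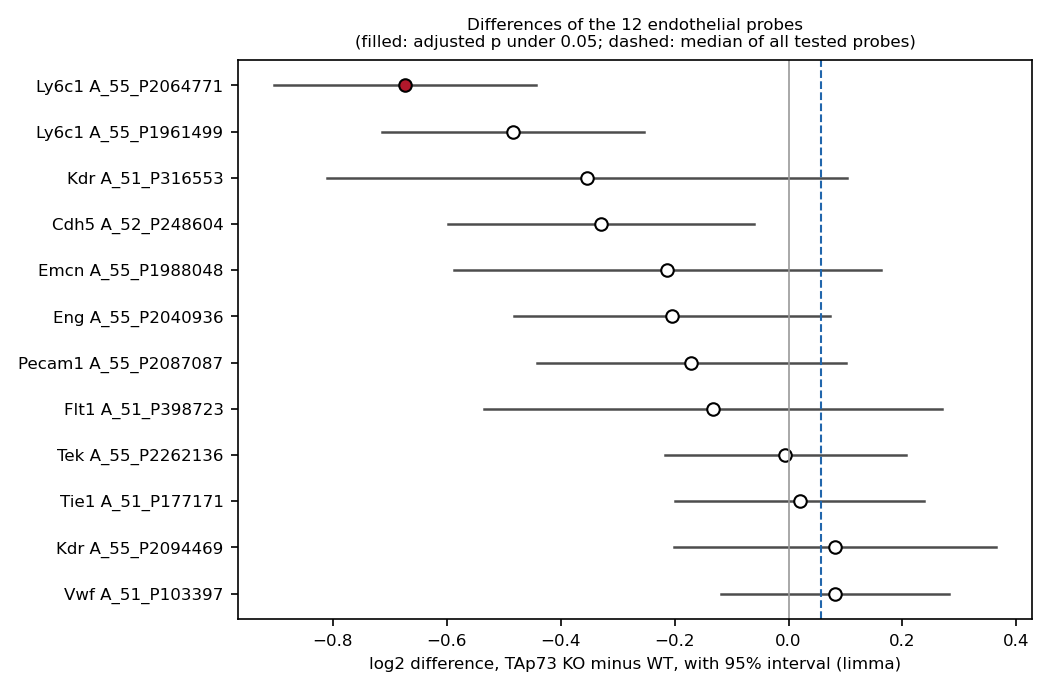
Log2 difference of each of the 12 endothelial probes, TAp73 KO minus WT, with its 95% interval from limma, a filled point where the adjusted p was under 0.05, a grey line at 0 and a dashed line at the median of all tested probes, 0.06. Ly6c1 leads with -0.67 and -0.48, and the intervals of Ly6c1 and Cdh5 lie below 0.

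Across arrays the 10 genes did not follow a single order. By their brightest probes, TAp73 KO replicate 1 was the lowest TAp73 KO array for 6 of the 10 genes and the highest for 2. WT replicate 3 was the lowest WT array for 7. The median deviation of the 10 genes from their own means was -0.10, -0.04 and -0.07 in TAp73 KO replicates 1 to 3, and 0.09, 0.07 and -0.04 in WT replicates 1 to 3. TAp73 KO replicate 2 lay just below WT replicate 3, and the difference between these 2 arrays was small beside the range among the WT arrays.

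The genes that work with these receptors were read from companion lists, each gene by its brightest probe. Of 8 VEGF ligands and further VEGF receptors, 2 were lower, 0 higher and 6 not called (median -0.18). The falls were in Flt4, the VEGF receptor of lymphatic endothelium, and Nrp1, a coreceptor of VEGF and semaphorins. Flt4 read 42.6, 40.3 and 41.8 in TAp73 KO testes and 72.9, 66.8 and 82.1 in WT testes (-0.83, SE 0.09, limma adjusted p = 0.0147). With normexp background correction it was 0.45 (adjusted p = 0.641), and the call was lost without TAp73 KO replicate 2 (adjusted p = 0.075) or replicate 3 (adjusted p = 0.0715). Nrp1 read 133, 153 and 127 in TAp73 KO testes and 207, 253 and 218 in WT testes (-0.71, SE 0.11, adjusted p = 0.0343). Its call was lost on leaving out any 1 array and with slide as a block (adjusted p = 0.0802), and under normexp the difference was 0.06 (adjusted p = 0.937). The ligands themselves were not called, with differences of -0.16 for Vegfa, 0.03 for Vegfb, -0.43 for Vegfc, -0.17 for Vegfd and 0.27 for Pgf.

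Of 3 measured partners of the Tie receptors none was called (1 gene higher and 0 lower by limma's raw p below 0.05). Angpt2, a context-dependent ligand of Tek, differed by 0.16 (adjusted p = 0.449). Angpt4, a further ligand of Tek, differed by 0.88 (adjusted p = 0.161) with a signal clear of background on only 1 of 3 WT arrays. Ptprb, the phosphatase that restrains Tek, differed by -0.08 (adjusted p = 0.786).

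For endoglin and its receptor family, 1 of 14 measured genes was lower, 0 were higher and 13 were not called (median -0.19). The gene called was Tgfbr2, the type II receptor for TGF-beta, at 829, 834 and 904 in TAp73 KO testes and 1348, 1552 and 1559 in WT testes. Its groups lay far apart (-0.79, SE 0.09, adjusted p = 0.0139), but its other probe, A_55_P2107288, differed by -0.07 (adjusted p = 0.735). Acvrl1, the endothelial type I receptor that Eng assists, differed by -0.25 (adjusted p = 0.132), and Bmpr2, its type II partner, by -0.51 (adjusted p = 0.0525). Id1, a common target of this pathway, differed by -0.15 (adjusted p = 0.545) and Id3 by -0.46 (adjusted p = 0.0547). Smad1 went the other way (0.22, adjusted p = 0.161), with groups that did not overlap. Of the 14 genes, 11 had a negative and 3 a positive difference. By limma's raw p below 0.05, 5 genes were lower and 1 higher.

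Of 27 measured further genes typical of endothelium, 1 was lower, 0 were higher and 26 were not called, and their median was 0.01. The gene called was Cd34, a sialomucin of small vessels that blood progenitors and some stromal cells also carry. Cd34 read 3660, 4206 and 4197 in TAp73 KO testes and 5619, 6683 and 7222 in WT testes (-0.69, SE 0.12, adjusted p = 0.0415). Its other probe, A_55_P2009225, differed by -0.19 (adjusted p = 0.583), and with slide as a block the call was lost (adjusted p = 0.0885). By limma's raw p below 0.05, 3 genes of this list were lower and 2 higher. Beside Cd34 these were Thbd, the thrombin receptor thrombomodulin (-0.41, adjusted p = 0.161), Ushbp1 (-0.21, adjusted p = 0.188), Egfl7 (0.22, adjusted p = 0.2) and Procr, the endothelial protein C receptor (0.30, adjusted p = 0.208). In this list 13 genes had a negative and 14 a positive difference.

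Of 20 measured transcription factors of endothelium and blood none was called (4 genes lower and 1 higher by limma's raw p below 0.05), with a median of -0.05. The smallest p-values were those of Mef2c (-0.64, adjusted p = 0.0634) and Nr2f2, a factor of venous identity (-0.60, adjusted p = 0.0731). The ETS factors Fli1 and Ets1 differed by -0.18 and 0.07. Among 9 measured vascular Notch and ephrin genes none was called (1 gene lower and 1 higher by limma's raw p below 0.05). The arterial Notch ligand Dll4 differed by -0.83 (SE 0.27, adjusted p = 0.153) and the Notch target Hey1 by 0.37 (adjusted p = 0.194).

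Of 5 measured partners of Vwf, 1 was lower and 0 higher. Gp1bb, a subunit of the platelet receptor for Vwf, read 825, 784 and 874 in TAp73 KO testes and 1787, 1542 and 1553 in WT testes (-0.97, SE 0.09, adjusted p = 0.00824), and its second tested probe gave -1.01 (adjusted p = 0.0152). Among 5 adhesion molecules of activated endothelium none was called (1 gene lower and 0 higher by limma's raw p below 0.05). Icam1 differed by -1.43 (SE 0.48, adjusted p = 0.163) with a signal clear of background on 1 of 3 TAp73 KO and 2 of 3 WT arrays, and Vcam1 by -0.21 (adjusted p = 0.333).

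Relatives of Ly6c1 were read as well, since it lies in a cluster of Ly6 genes on chromosome 15. Of 13 measured family members 2 were lower, 0 higher and 11 not called (median -0.01). The member next to Ly6c1 in the order of genes with a probe, Ly6a, the stem cell antigen Sca-1 that endothelium also expresses, read 1140, 1365 and 1256 in TAp73 KO testes and 2235, 2302 and 2675 in WT testes (-0.94, SE 0.11, adjusted p = 0.0148). Ly6d, known from epithelia and B cell precursors, read 203, 213 and 146 in TAp73 KO testes and 986, 1020 and 830 in WT testes (-2.35, SE 0.17, adjusted p = 0.00369). The other direct neighbour, Ly6f, differed by -0.01 (adjusted p = 0.971), and Gpihbp1, a capillary protein of the same family that holds lipoprotein lipase, by -0.01 (adjusted p = 0.94). Ly6e and Ly6h differed by -0.91 (adjusted p = 0.0955) and -0.74 (adjusted p = 0.0838). Of the 13 family members, 8 had a negative and 5 a positive difference, the highest at 0.35. By limma's raw p below 0.05, 5 were lower and 1 higher.

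**Figure D4:**
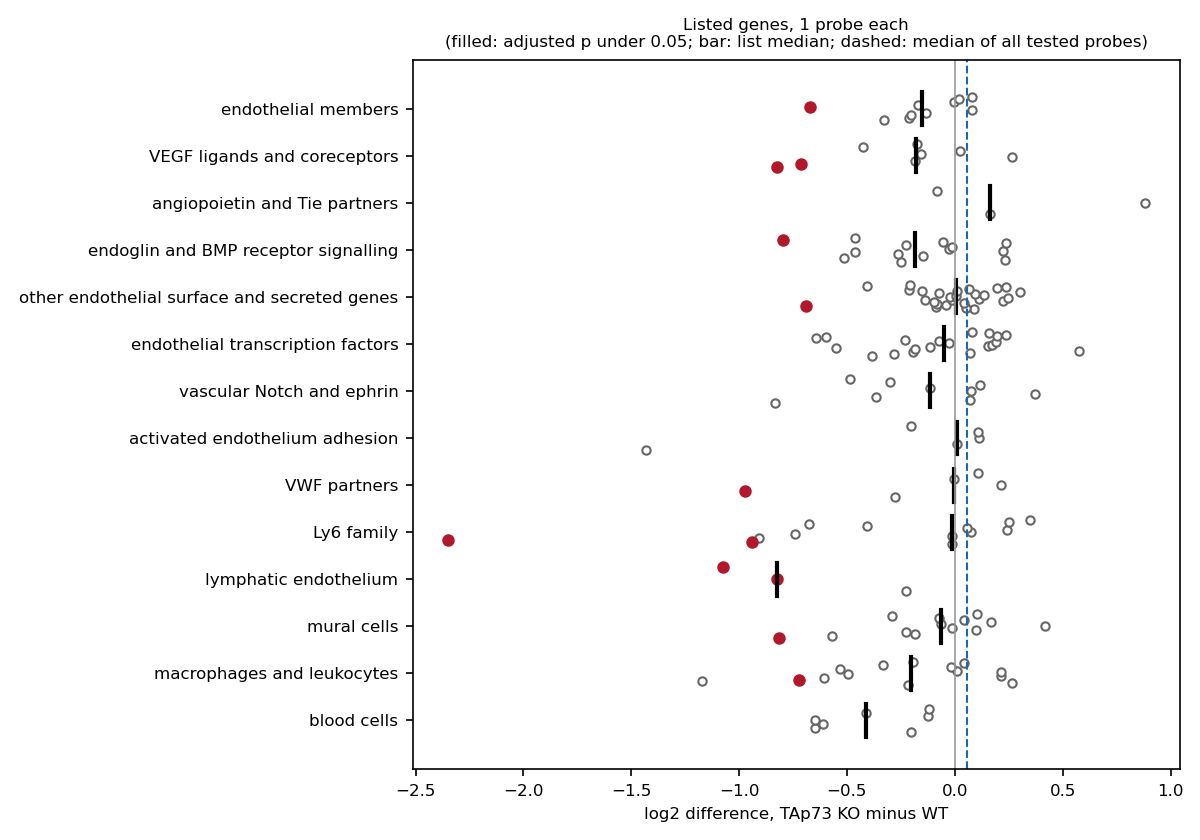
Log2 difference, TAp73 KO minus WT, of each measured gene in the endothelial list and its companion lists, without the testis cell list. Each gene has 1 point in every list that holds it, filled where the adjusted p was under 0.05. A black bar marks each list's median and a dashed line the median of all tested probes, 0.06. Filled points lie to the left of 0, from -2.35 for Ly6d to -0.67 for Ly6c1, although Flt4 and Nrp1 turn positive with normexp background correction.

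Markers of leukocytes and blood cells, some of which share Ly6c1, Gp1bb or Cd34, were read beside them. Of 14 measured macrophage and leukocyte genes 1 was lower, Cd14 (-0.72, SE 0.07, adjusted p = 0.01), 0 were higher and 13 were not called, with a median of -0.21. By limma's raw p below 0.05, 7 of the 14 were lower and 0 higher. The list's summed scaled signal was 127600 to 146889 in TAp73 KO testes and 122786 to 126952 in WT testes. The brightest probes weigh most in this sum, and 9 of the 14 genes had a negative and 5 a positive difference. Of the list, 13 of 14 genes were well above background on all arrays, the exception being Ccr2, a receptor of the monocytes that carry Ly6c2 (-1.17, adjusted p = 0.102). Blood cell genes had a median of -0.41, with 0 of 7 called (4 genes lower and 0 higher by limma's raw p below 0.05). Their summed signal was 44288 to 74801 in TAp73 KO testes and 70395 to 92676 in WT testes. The platelet chemokine Pf4 differed by -0.41 (adjusted p = 0.0834) and the globin Hbb-bt by -0.65 (adjusted p = 0.182). The part of these cells in the values of Ly6c1, Gp1bb and Cd34 was not tested.

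Of 13 measured genes of mural cells, the pericytes and smooth muscle that wrap the vessels, 1 was lower, 0 were higher and 12 were not called (median -0.07). It was Abcc9, a subunit of a potassium channel of pericytes, at 204, 217 and 276 in TAp73 KO testes and 415, 404 and 399 in WT testes (-0.82, SE 0.12, adjusted p = 0.0304; 0.0546 with slide as a block). The pericyte receptor Pdgfrb differed by -0.29 (adjusted p = 0.19) and Rgs5, a common pericyte marker, by 0.10 (adjusted p = 0.838). Of 3 measured genes of lymphatic endothelium 2 were lower, Flt4 and Pdpn, and Ccl21a was not called (-0.22, adjusted p = 0.39). Pdpn, which several stromal and epithelial cells also express, read 1740, 1633 and 1585 in TAp73 KO testes and 2989, 3548 and 3967 in WT testes (-1.07, SE 0.12, adjusted p = 0.0129). Lyve1 and Prox1, which define lymphatic endothelium more narrowly, were not among the tested genes.

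Among the genes called in the companion lists, Ly6d alone stayed under the threshold whichever array was left out (adjusted p = 0.0128 to 0.0314). Gp1bb lost its call without TAp73 KO replicate 2 (adjusted p = 0.0507), and Cd14 without TAp73 KO replicate 2 or WT replicate 2 (0.0521 and 0.0658). Ly6a and Pdpn lost theirs without TAp73 KO replicate 2 or 3 or WT replicate 2, with adjusted p-values up to 0.0775 and 0.08. Tgfbr2 lost its call without these 3 arrays or WT replicate 3 (adjusted p up to 0.081). Cd34 kept its call only without WT replicate 1, Abcc9 only without TAp73 KO replicate 3 and Sox9 only without TAp73 KO replicate 1. Hsd3b1 kept it in none of the 6 cases.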

How the data were processed

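Expression was measured in 6 whole testes. The authors scanned 1 green channel and quantified it with Feature Extraction 10.7.3.1, per the file headers, which name mm9 as the design's mouse build. The deposited signals are intensity on a linear scale. The deposited marks of the scanner software (0 or 1) gave signal above background, saturation and outliers. The authors also deposited a value table of linear intensity, used as an alternative; its normalization is known only from its values. The submitters' processing notes name limma. The table's columns matched scanner files of the opposite label in 6 of 6 cases (r = 0.957 to 0.996).

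Control spots were dropped and outlier spots (163 to 280 per array) set to missing. Log2 processed signals were averaged per probe, less each array's 75th percentile. A probe was tested if well above background on at least 3 arrays with at least 2 values per group, 31801 of 39429. On each array 74.4% to 84.4% of probes were well above background, and the number of arrays limits precision. Accessions named 26055 probes through RefSeq GRCm38.p6, and 13374 stayed unnamed. Group was the only term in limma 3.58.1 (R 4.3.3, lmFit and eBayes, two-sided), checked on simulated data. Intervals are at 95%.

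Members, lists and tests were chosen with earlier results of these data known. All member probes are named; of each list, at most 4 called genes, or else the 2 with the smallest p. Other genes named as ligands, partners or typical markers, and second probes, were chosen after their values were seen. Same-numbered replicates did not deviate together (r = -0.09 to -0.03, and -0.019 to 0.095 for differently numbered ones), and no pairing by number was assumed. With 3 arrays per group a weak pairing could not be seen. The scanner files hold no mean signal, so normexp (offset 50) ran on median signal and median background. Alternatives were normalization, background, filter, outlier spots, slide, replicate number, the value table, and leaving out each array.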

Additional observations from a re-analysis of the deposited data

How the results depend on the processing

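Ly6c1 probe A_55_P2064771 kept its sign in all 18 other settings and its call in 7 of the 17 with a test. With normexp background correction no probe at all was called (0 lower, 0 higher), and list medians became 0.129 for the 10 endothelial genes, 0.102 VEGF, 0.458 Tie partners, -0.0027 endoglin, 0.204 other endothelial, 0.244 transcription factors, 0.233 Notch, 0.502 activated endothelium, 0.496 Vwf partners, 0.134 Ly6, -0.157 lymphatic, 0.165 mural and 0.125 macrophage. The median of all probes was 0.22 there, Flt4 turned to 0.447 and Nrp1 to 0.0554. The differences of Trp73, the targeted gene, shrank there as well. They were -1.88 for probe A_52_P193555 (-6.01 as reported), -0.90 for A_55_P1988133 (-3.21) and -0.63 for A_52_P410636 (-0.99). Each had a limma adjusted p of 0.537. The cause of these changes was not tested. In the order quantile normalization, median scaling, normexp with quantile, and the authors' value table, the endothelial median was -0.084, -0.0893, -0.0769 and -0.0868, and the VEGF median -0.13, -0.116, -0.112 and -0.116. Median scaling moved every probe by the same amount, as with Ly6c1 (-0.67 to -0.61) and Vwf (0.08 to 0.14). It thus left each list's distance from the median of all probes unchanged. The list medians in these settings are not set against the median of all probes. Other endothelial genes had 0.0475, 0.0679 and 0.044 under quantile, median scaling and the value table, and higher calls over all probes numbered 217, 143 and 217. Median scaling gave 0 calls in other endothelial genes and a transcription factor median of 0.0101. Normexp with quantile gave 0 calls in VEGF, other endothelial and testis lists and 1 in the lymphatic list, 405 lower calls over all probes, and medians of -0.0518 endoglin, 0.00668 Notch, -0.267 lymphatic, 0.0395 mural and -0.123 macrophage.

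Without the filter on dim probes 0 endothelial, 1 VEGF, 0 other endothelial, 0 mural and 1 testis gene were lower, with 349 lower and 13 higher over all probes. Requiring signal on all 6 arrays gave 3 endoglin, 1 transcription factor, 2 mural and 3 macrophage genes lower, a Ly6 median of -0.211 and 165 higher over all probes. With slide as a block 1 VEGF gene (Flt4, not Nrp1), 0 other endothelial, 0 mural and 1 testis gene (Sox9, not Hsd3b1) were lower (299 lower and 15 higher over all probes). Within slide 1 limma called 0 probes, with medians of 0.019 for transcription factors and -0.0878 for macrophages. In the slide 2 pair medians were -0.0863 endothelial, -0.0791 other endothelial, -0.126 transcription factors, -0.334 activated endothelium, -0.454 Ly6, -0.677 lymphatic, -0.133 mural, -0.547 macrophage and -0.647 blood.

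Same-numbered animals are not known to share more than a number. With the replicate block 0 genes were lower in every list but the Ly6 family, which had 1, and 9 probes were lower and 1 higher in all; Ly6c1 had an adjusted p of 0.114.

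By the brightest probe of each gene, leaving out each array in turn gave 0 endothelial calls. The endothelial median was then -0.179 to -0.0355, with -0.09 without TAp73 KO replicate 1 and -0.04 without WT replicate 1. The dimmer Kdr probe, A_51_P316553, was called without TAp73 KO replicate 1 (limma adjusted p = 0.0473). Calls ranged over 0 to 1 for VEGF, endoglin, other endothelial, Vwf partner, mural and testis genes, 1 to 3 for Ly6, 0 to 2 for lymphatic and macrophage genes, and 0 to 1 higher for transcription factors. Medians ranged over -0.246 to -0.104 endoglin, -0.125 to 0.0166 transcription factors, -0.109 to 0.0282 Notch, -0.159 to -0.0172 mural, -0.405 to -0.0879 macrophage, -0.0211 to 0.235 testis, -0.145 to 0.00692 Ly6, -0.134 to 0.124 Vwf partners, -0.0899 to 0.114 activated endothelium, 0.0331 to 0.263 Tie partners and -0.0158 to 0.03 other endothelial. Over all probes 117 to 418 were lower and 7 to 28 higher.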
